A study of Mus musculus with 4 samples.

Results

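A set of 10 genes that make, display, activate and relay transforming growth factor beta (TGF-β) was examined in regulatory T cells (Treg) with intact or floxed Pdpk1, the gene of the kinase PDK1. The genes were taken by symbol from the deposited table, which held all 10 of them among 28334 rows: Lrrc32, Itgb8, Furin and Tgfb1 for the latent cytokine, Tgfbr1 and Tgfbr2 for its receptors, and Smad3, Smad7, Ski and Skil for the SMAD pathway. All 10 also passed the filter on low values, which left 13685 genes in the tests. The cells were sorted as CD4+ YFP+ from the spleen and peripheral nodes of untreated C57BL/6 mice, and their poly-A RNA was sequenced in 4 libraries. Every mouse carried the allele Foxp3 YFP-Cre/0, in which the Foxp3 gene drives the recombinase Cre together with YFP. In the 2 libraries called WT the genotype was completed by Pdpk1 +/+, and in the 2 called KO by Pdpk1 FL/FL. The sources used here give neither ages nor whether each library came from a separate animal, so p-values measure only the spread between these libraries. Foxp3 lies on the X chromosome, and a hemizygous animal has no Treg that lacks the Cre allele. Effects of the deletion within a cell and effects of the altered animal around it cannot be told apart in this design.

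TGF-β1 is made as a latent precursor that the protease furin cleaves into the cytokine and a propeptide that stays wrapped around it. Treg dock this latent complex on their surface through GARP, the product of Lrrc32, and the integrin αvβ8, whose β chain is encoded by Itgb8, frees the active cytokine. Active TGF-β binds the receptor kinases TGFBR2 and TGFBR1, which phosphorylate SMAD2 and SMAD3, while SMAD7, SKI and SnoN (the product of Skil) restrain the signal. Skil and Smad7 are themselves textbook targets of the pathway. In Treg, the pathway is known both for inducing Foxp3 in the periphery and as a means of suppressing other T cells.

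The promoters of Itgb8, whose transcript differed most between the genotypes, and of Tgfb1, whose transcript was not called, are shown because these genes encode the activator and the cytokine it activates. RefSeq promoter windows on GRCm38.p6, from 250 bases before to 50 after a start site, were matched for 7 of the 10 genes, not for Lrrc32, Smad7 and Skil. Capitals mark the letters CAGAC, a core element bound by SMAD proteins, on either strand. The Itgb8 window lies on the minus strand at chr12:119238227-119238526 and the Tgfb1 window on the plus strand at chr7:25686752-25687051. In GENCODE the gene Itgb8 reaches to 119238802, so this whole Itgb8 window lies within the gene by that annotation.
Itgb8: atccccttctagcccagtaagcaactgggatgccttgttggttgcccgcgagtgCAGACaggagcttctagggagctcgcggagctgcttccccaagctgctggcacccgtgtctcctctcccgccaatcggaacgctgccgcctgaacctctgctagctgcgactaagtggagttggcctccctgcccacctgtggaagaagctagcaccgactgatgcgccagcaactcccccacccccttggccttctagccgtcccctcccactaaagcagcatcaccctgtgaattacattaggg
Tgfb1: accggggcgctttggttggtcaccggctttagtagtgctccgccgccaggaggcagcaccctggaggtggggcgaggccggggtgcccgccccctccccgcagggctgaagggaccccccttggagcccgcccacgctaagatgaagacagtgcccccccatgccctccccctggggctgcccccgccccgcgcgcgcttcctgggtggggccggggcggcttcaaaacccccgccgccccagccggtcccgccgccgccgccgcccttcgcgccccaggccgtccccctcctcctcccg
The Itgb8 window held CAGAC once, and the Tgfb1 window did not hold it. The 7 genes had 9 windows, of which 5 held CAGAC, as did 49.6% of all 32851 promoters of the same length. The palindrome GTCTAGAC was in none of the members' windows and in 0.213% of all promoters. The FOXO element GTAAACA, searched on both strands, was in a window of Furin alone and in 3.65% of all promoters. No match overlapped another in the members' windows.

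Values below are the deposited log2 normalised counts. A difference is the mean of KO minus the mean of WT on that log2 scale, and a gene is called higher or lower where the limma test, adjusted over all tested genes, gave p under 0.05. The libraries were close to each other in scale, the median over the tested genes being 8.77 in both WT libraries and 8.8 in both KO libraries. Pdpk1 was not called (log2 difference 0.02, 95% interval -0.06 to 0.10, adjusted p = 0.612 by limma), and a value summed over the gene does not show whether the floxed exons were removed. The Treg markers fixed for the check were high in all 4 libraries, all 7 between 10.41 and 13.26, with Foxp3 at 11.42 and 11.38 in WT and at 11.42 and 11.47 in KO. Of the 7, Il2ra (log2 difference 0.225), Ctla4 (0.245) and Tnfrsf18 (0.155) were called higher in KO and Ikzf2 (-0.095) lower. That share of 57.1% stands beside 47.4% over all tested genes. All of these calls used a fit without the replicate number. In the deposited values, the differences WT 1 minus WT 2 and KO 1 minus KO 2 ran opposite to each other (r = -0.91 across the 13685 genes, which are not independent replicates). Their sum was within 0.02 of 0 in 48.8% of genes, to the deposited 2 decimals. Values adjusted for the replicate number before deposit would show this, and no source used here says whether they were. If so, the fit with genotype alone counts too many degrees of freedom, and every SE, interval and adjusted p from it, and the 6481 calls, are too favourable. The gaps and SDs within a group given below would then also tend to understate the spread between libraries. When limma was given the replicate number as a further term, 0 genes passed an adjusted p of 0.05 and 4881 (35.7%) had an unadjusted p under 0.05, 3 of the 10 members among them. With any library left out, which leaves a group with a lone library and 1 residual degree of freedom, limma called 0 genes (5225 to 5669 at unadjusted p under 0.05).

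**Figure D1:**
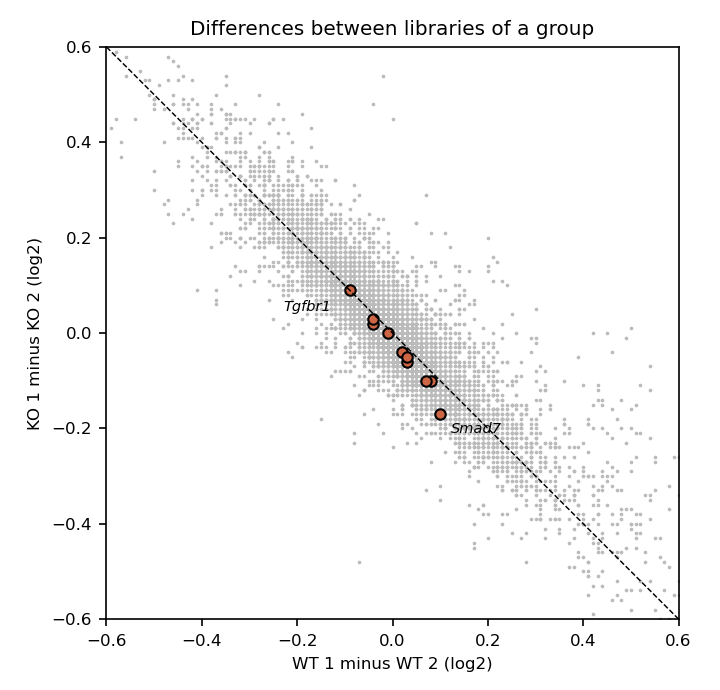
The x axis is WT 1 minus WT 2 and the y axis KO 1 minus KO 2, both in log2 units, with a grey point for each tested gene (99.1% lie within the axes), larger points for the 10 TGF-β genes and a dashed line where both differences cancel. The 10 genes lie on or near that line, with sums of both differences from -0.07 for Smad7 to 0 for Tgfbr1.

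Among the 10 genes, Lrrc32 was called higher in KO and Itgb8 and Skil were called lower, while the other 7 were not called. These 3 of 10 (30%) stand beside 47.4% called in either direction over all tested genes, 27.1% higher and 20.3% lower, so the share called was not larger than the background in this fit. The comparison turned with the processing, with 7 of 10 beside 44.5% after quantile normalization and 5 of 10 beside 40% after a correction for transcript length and mean value. The groups did not overlap in any of the 10 genes, KO lying above WT in 3 and below it in 7, which was also so for 73.0% of the tested genes (39.9% above and 33.1% below). The differences were mostly small. Their median absolute size was 0.145 on the log2 scale, and that of all tested genes 0.14. The median difference was -0.12, against 0.015 over all tested genes.

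The largest difference was in Itgb8, the β8 integrin chain that unlocks latent TGF-β. Its gene spans 119158022 to 119238802 of chromosome 12 (GRCm38, minus strand). Its log2 normalised count was 10.42 and 10.40 in WT and 9.61 and 9.65 in KO. Both KO libraries lay far below both WT libraries, and the gap between the groups was many times the gap within either. The log2 difference was -0.78 (SE 0.02, 95% interval -0.84 to -0.72, adjusted p = 0.00434 by limma), a 1.72-fold lower level. Of the 13685 tested genes, 4.12% differed at least as much in either direction. Adding the replicate number widened the interval to -0.89 to -0.67 and gave an adjusted p of 0.0964 by limma. No gene had a smaller adjusted p in that fit, and many others, Lrrc32 among them, had the same value.

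Lrrc32 moved the other way. It encodes GARP, the docking receptor of latent TGF-β on Treg, and lies on the plus strand of chromosome 7 (98489283 to 98502181). The log2 normalised count was 12.12 and 12.13 in WT and 12.43 in both KO libraries. The KO libraries were above the WT libraries by about the same step in every pairing. The log2 difference was 0.305 (SE 0.01, 95% interval 0.27 to 0.34, adjusted p = 0.00499 by limma), a 1.24-fold higher level, and 22.4% of tested genes differed at least as much. Adding the replicate number gave an interval of 0.23 to 0.38 and an adjusted p of 0.0964 by limma.

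Tgfb1 itself, the cytokine gene (chromosome 7, 25687002 to 25705077, plus strand), was at 11.38 and 11.42 in WT and at 11.47 and 11.45 in KO. The KO values stood just above the WT values, 0.03 apart at the nearest, and the gene was not called (log2 difference 0.06, 95% interval 0.00 to 0.12, adjusted p = 0.0886 by limma). The sign turned, to -0.04, after a correction for transcript length and mean value. Furin, which cleaves the precursor, was at 11.75 and 11.79 in WT and at 11.86 and 11.83 in KO. It was not called either, with a log2 difference of 0.075 (adjusted p = 0.0644 by limma). Furin (chromosome 7, 80388585 to 80405436, minus strand) shares 1.29% of its exon bases with the antisense gene Gm44851, and whether reads were counted by strand was not given. For the remaining members, GENCODE lists no gene with which they overlap.

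**Figure D2:**
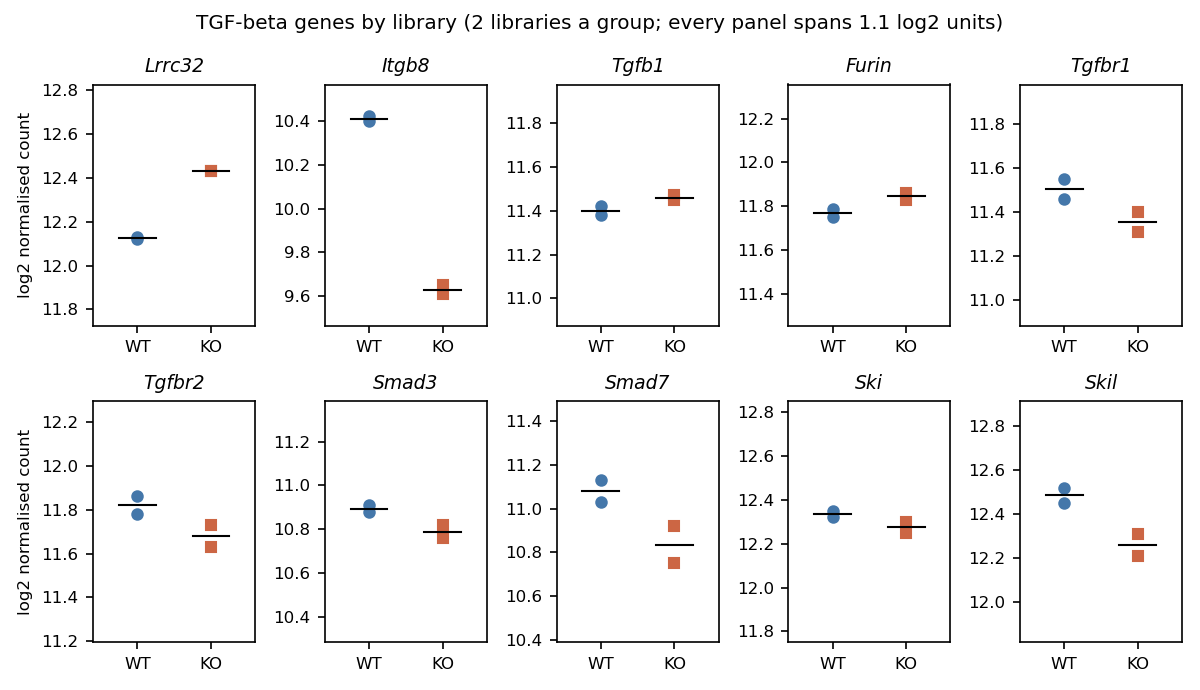
Each panel shows the log2 normalised count of a gene (y axis, spanning 1.1 log2 units in every panel) in the 2 WT libraries (circles) and the 2 KO libraries (squares), with a line at each group mean. Itgb8 falls from 10.42 and 10.40 to 9.61 and 9.65, Lrrc32 rises from 12.12 and 12.13 to 12.43, and the other 8 panels show smaller steps.

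Both receptor genes were a little lower in KO and neither was called. Tgfbr1, the type I receptor kinase (chromosome 4, 47353222 to 47414931, plus strand), was at 11.46 and 11.55 in WT and at 11.40 and 11.31 in KO. The groups were separated by 0.06, less than the 0.09 between libraries of a group, and the log2 difference of -0.15 had an adjusted p of 0.0811 by limma. Tgfbr2, the type II receptor that binds the ligand first (chromosome 9, 116084293 to 116175360, minus strand), was at 11.86 and 11.78 in WT and at 11.63 and 11.73 in KO. Its log2 difference was -0.14, with a 95% interval of -0.28 to 0.00 (adjusted p = 0.0947 by limma). Tgfbr2 passed the test after quantile normalization (-0.19, adjusted p = 0.0215 by limma).

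Of the SMAD genes, Smad3, the signal transducer (chromosome 9, 63646767 to 63757994, minus strand), was at 10.91 and 10.88 in WT and at 10.76 and 10.82 in KO. Its log2 difference of -0.105 lay just outside the threshold (adjusted p = 0.0511 by limma), and it was called under both other scalings and after the length correction, at -0.14 to -0.13. Smad7, the inhibitor that targets the receptors (chromosome 18, 75367529 to 75395935, plus strand), was at 11.13 and 11.03 in WT and at 10.75 and 10.92 in KO. The KO libraries differed from each other by 0.17, the widest gap within a group among the 10 genes. The log2 difference of -0.245 had a wide interval (95% interval -0.46 to -0.03, adjusted p = 0.0696 by limma) and was called after quantile normalization (-0.285, adjusted p = 0.0311 by limma).

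The nuclear repressors SKI and SnoN bind SMAD complexes and hold their target genes down. Skil, which encodes SnoN (chromosome 3, 31095058 to 31122577, plus strand), was at 12.52 and 12.45 in WT and at 12.21 and 12.31 in KO. Both KO values were below both WT values, and the gene was called 1.17-fold lower (log2 difference -0.225, SE 0.05, adjusted p = 0.0305 by limma). The call was lost with no filter on low values (adjusted p = 0.0776 by limma) and on adding the replicate number (adjusted p = 0.135 by limma). Ski (chromosome 4, 155154075 to 155222592, minus strand) was at 12.35 and 12.32 in WT and at 12.25 and 12.30 in KO. Its log2 difference was -0.06 (adjusted p = 0.132 by limma), and it was called after quantile normalization (-0.10) and after the length correction (-0.11).

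**Figure D3:**
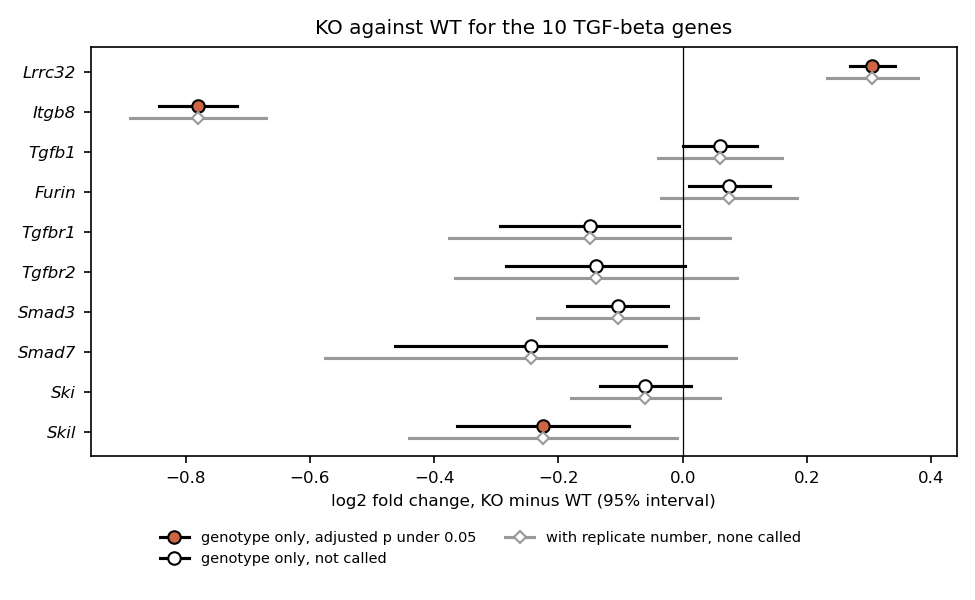
The x axis is the log2 difference KO minus WT and the bars are 95% intervals, in black for the fit with genotype only (filled where adjusted p was under 0.05) and in grey for the fit with the replicate number added, in which no gene was called. Itgb8 at -0.78 and Lrrc32 at 0.305 stand away from 0 in both fits, and most of the other intervals widen across 0 in the second.

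Levels of different genes were compared only per length, as the deposited log2 value minus the log2 of the longest GENCODE transcript in kilobases. In WT the order ran from Tgfb1 at 10.04 ± 0.03 (SD, n = 2) and Lrrc32 at 9.93 ± 0.01 through Ski (9.87 ± 0.02), Skil (9.74 ± 0.05), Furin (9.25 ± 0.03), Smad7 (8.98 ± 0.07), Tgfbr1 (8.98 ± 0.06), Tgfbr2 (8.80 ± 0.06) and Smad3 (8.55 ± 0.02) to Itgb8 at 7.34 ± 0.01 (SD, n = 2 each). Smad7 and Tgfbr1 did not differ beyond their spread, and the other neighbours stood apart by more than either SD. The places of Tgfb1 and Furin rested on the length chosen, since with all exons joined they were at 9.07 and 8.57, and Furin then stood below Smad7 (8.90), Tgfbr1 (8.80) and Tgfbr2 (8.79). Itgb8 was the least abundant of the 10 per length in both genotypes, at 6.56 ± 0.03 (SD, n = 2) in KO, and stayed last with joined exons. In KO, Lrrc32 stood first at 10.24 per length, above Tgfb1 at 10.10 ± 0.01 (SD, n = 2). With joined exons Lrrc32 was first in both genotypes, at 9.90 in WT (Ski 9.86, Tgfb1 9.07) and 10.20 in KO (Ski 9.80, Tgfb1 9.13). The change of first place between the genotypes thus rested on the length chosen.

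The other β chains that can pair with the αv integrin chain bear on how latent TGF-β is handled, because αvβ8 is only a member of a family of αv integrins. Itgav, the αv chain, was at 11.31 and 11.33 in WT and at 11.31 and 11.27 in KO and was not called (log2 difference -0.03, adjusted p = 0.303 by limma). Itgb5, the β5 chain, was at 6.76 and 6.37 in WT and at 8.02 and 8.38 in KO. Both KO libraries were above both WT libraries, and Itgb5 was called 3.11-fold higher (log2 difference 1.64, SE 0.20, adjusted p = 0.0111 by limma). Itgb1, the β1 chain, was called 1.26-fold higher (0.33, adjusted p = 0.00626 by limma), and Itgb3, the β3 chain, was not called (-0.02, adjusted p = 0.445 by limma). Per length, Itgb8 was above Itgb5 by a wide margin in WT (7.34 ± 0.01 against 4.85 ± 0.28, SD, n = 2 each), and the 2 chains were close in KO (6.56 ± 0.03 against 6.49 ± 0.25, SD, n = 2 each). With joined exons Itgb5 was above Itgb8 in KO (6.37 against 6.16), so their order there depended on the length chosen. By the longest transcript, Itgb1 (10.42 in WT, 10.75 in KO) and Itgb3 (8.87 in WT, 8.85 in KO) stood above both Itgb8 and Itgb5 in each genotype. Itgav and Itgb3 were named here after their values had been seen.

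Around the 10 genes, 96 other genes of the pathway were listed by role, of which 72 were tested. Of these, 19 were called higher and 13 lower (44.4%, beside 47.4% of all tested genes), and the median log2 difference was 0.045 against 0.015. The pathway as listed thus held about the share of called genes that the whole table held, in both directions.

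Of 12 further ligands of the TGF-β family, 3 were tested, with a median of -0.32. All 3 were called, 1 higher and 2 lower, beside 47.4% of all tested genes. Tgfb3, which encodes another TGF-β isoform, was at 5.85 and 6.25 in WT and at 5.44 and 5.11 in KO, a 1.71-fold lower level close to the threshold (adjusted p = 0.0478 by limma), and the call was lost with no filter on low values, with a variance prior without trend and after the length correction. Gdf11, a ligand related to myostatin, was 1.25-fold lower and Bmp7, a bone morphogenetic protein, 1.21-fold higher, a call that was lost with no filter (adjusted p = 0.0517 by limma).

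In the list of the latent complex and its activation, 12 of 21 genes were tested, with a median of -0.025. Of these, 3 were called higher and 2 lower (41.7%, beside 47.4% of all tested genes). Mmp9, a matrix metalloprotease that can release TGF-β, was at 5.08 and 4.92 in WT and at 4.12 and 4.13 in KO, a 1.83-fold lower level (log2 difference -0.88, SE 0.08, adjusted p = 0.00732 by limma). These levels are low, and with a pseudocount of 10 the log2 difference was -0.61. Emilin1, a matrix protein that restrains processing of the TGF-β precursor, was 1.40-fold higher (0.49, SE 0.06). Itgb5 had the largest difference of the list.

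Among 15 tested receptors and co-receptors of 17 listed, the median was 0.015. Of these, 4 were called higher and 3 lower (46.7%, beside 47.4% of all tested genes). Acvr1c, which encodes the type I receptor ALK7 of nodal and activin-like ligands, was at 6.32 and 6.29 in WT and at 7.43 and 7.52 in KO. The step between the groups was far wider than the gap within them, and the gene was called 2.25-fold higher (log2 difference 1.17, SE 0.05, adjusted p = 0.00509 by limma). Fkbp1a, which encodes the immunophilin FKBP12 that keeps type I receptors inactive, was 1.21-fold higher. Bmpr2, the type II receptor of bone morphogenetic proteins, was 1.16-fold lower, and Tgfbrap1, a protein that associates with TGF-β receptors, 1.11-fold lower.

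Of the other SMAD genes, 4 of 6 were tested. Smad5, a transducer of bone morphogenetic proteins, was called 1.11-fold higher, and the remaining 3 were not called. That was 25%, beside 47.4% of all tested genes, and the median was 0.07. Of 19 tested regulators of 20 listed, 2 were called higher and 3 lower (26.3%), with a median of 0.01. Ldlrad4, which encodes a membrane protein that restrains SMAD activation and is itself induced by TGF-β, was at 10.30 and 10.32 in WT and at 9.88 in both KO libraries, a 1.35-fold lower level (log2 difference -0.43, SE 0.02, adjusted p = 0.00434 by limma). The ubiquitin ligases of the pathway Smurf2 and Rnf111 were 1.16-fold and 1.12-fold lower, and Strap, which encodes a partner of SMAD7 at the receptor, was 1.13-fold higher.

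The branch that runs from the receptors through the kinase TAK1 rather than through SMADs had all 6 of its listed genes tested. Their median was 0.17, with 3 called higher and 1 lower (66.7%, beside 47.4% of all tested genes). Traf6, the ubiquitin ligase that links receptors to TAK1, was at 11.48 and 11.47 in WT and at 11.72 and 11.74 in KO, 1.19-fold higher. Traf4 and Tab2, an adaptor of TAK1, were 1.15-fold and 1.14-fold higher, and Tab3, the adaptor closest to Tab2, was 1.07-fold lower.

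Among 18 genes reported as targets of TGF-β in various cells, 16 were tested, 5 were called higher and 3 lower, and the median was 0.09. Ldlrad4, given above, is also on this list. Cdkn2b, which encodes the cell cycle inhibitor p15, was at 4.88 and 4.91 in WT and at 6.03 and 5.93 in KO, a 2.12-fold higher level (log2 difference 1.09, SE 0.06, adjusted p = 0.00573 by limma). Its levels are low as well, and with a pseudocount of 10 the log2 difference was 0.88. Cdkn1a, which encodes the inhibitor p21, was 1.41-fold higher. Itgae, which encodes CD103, an integrin chain of tissue-resident T cells that TGF-β induces, was 1.17-fold higher (10.56 in both WT libraries, 10.81 and 10.77 in KO). Targets were called in both directions, as were genes over the whole table (27.1% of tested genes higher and 20.3% lower).

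**Figure D4:**
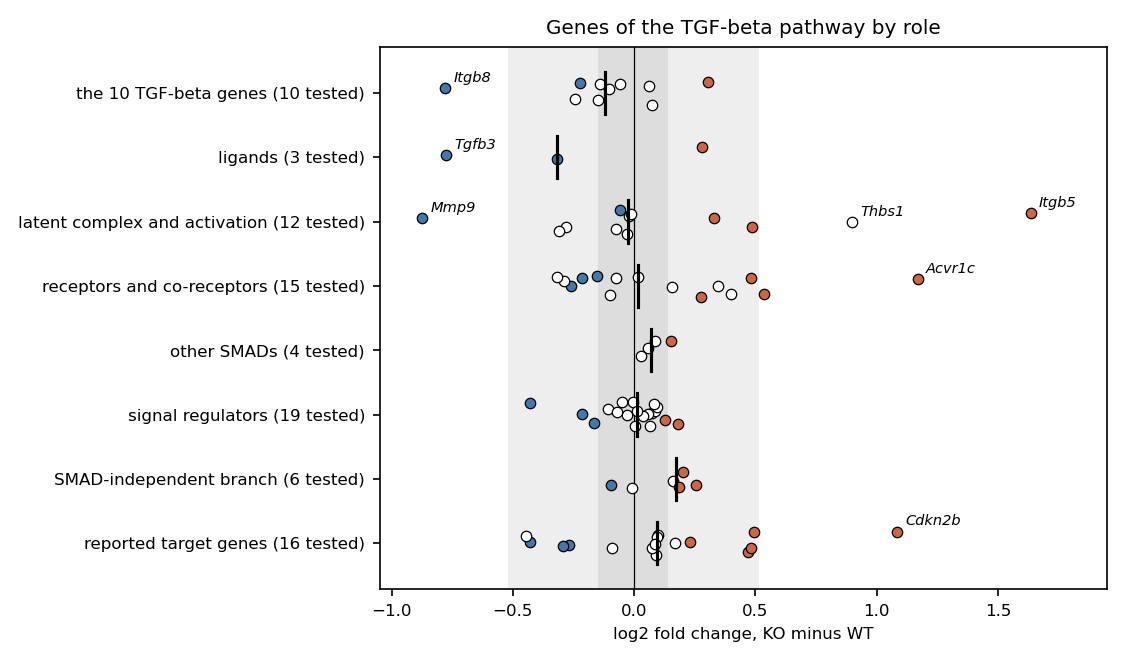
The x axis is the log2 difference KO minus WT, each point is a tested gene in the row of its role, filled orange where called higher, blue where called lower and white where not called, and a black bar marks the row median; the shading holds the middle 50% and 90% of all tested genes. Most points lie within the shading. On the right, Itgb5 (1.64), Acvr1c (1.17), Cdkn2b (1.09), Thbs1 (0.90, not called) and Eng (0.535) lie outside it. On the left, Mmp9 (-0.88), Itgb8 (-0.78) and Tgfb3 (-0.78) lie outside it.

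Fewer cells of a type and less RNA per cell cannot be told apart in these sorted bulk samples, and cells other than Treg also express some of these genes. Dendritic cells are known to express Itgb8. Of 5 dendritic cell markers 4 were tested, 1 called higher (Zbtb46) and 1 lower (Xcr1, log2 difference -0.89), with a median of -0.435. The 5 summed to a linear level of 241 and 199 in WT and 198 and 214 in KO. Over all 5 the sums of the groups thus overlapped. Without Zbtb46, left out after its values had been seen, the other 4 were all lower in KO. They summed to 153 and 124 in WT and 80.1 and 89.2 in KO, and whether dendritic cells bear on Itgb8 was not tested. Platelets carry GARP and TGF-β1, and of 6 platelet and megakaryocyte markers 5 were under a linear level of 10 in all 4 libraries, among them Pf4 and Ppbp below 1. The remaining marker, Itga2b, was called lower in KO (log2 difference -0.365, adjusted p = 0.0247 by limma). The 6 B cell markers summed to 394 and 354 in WT and to 322 and 316 in KO, with 1 called lower, and the 7 myeloid markers with a single row to 396 and 311 against 323 and 325, with 1 called lower. Of the NK and CD8 T cell markers 4 of 5 were tested and 1 (Klrb1c) was called lower. Of 6 stromal and endothelial markers 2 were tested and 1 (Col1a1) was called lower. These counts of calls stand beside 47.4% called over all tested genes. The part of such cells in the results was not tested.

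The genes whose values lay closest to Itgb8 over the 4 libraries, after each gene was centred on its own mean, were Wdr78, Ifi208 and Aph1b, at Euclidean distances of 0.030 to 0.033 log2 units among 11627 protein-coding candidates. For Lrrc32 they were Neto2, Acadl and Uap1, at 0.009 to 0.017. With 4 libraries such likeness mainly reflects a log2 difference of the same size, between -0.80 and -0.78 for the first 3 and between 0.295 and 0.31 for the others.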

How the data were processed

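Poly-A RNA of sorted Treg was sequenced in 2 WT and 2 KO libraries. The authors deposited log2 normalised counts, per the file headers and name. STAR, DESeq2 and mm10 are named in the submitters' processing notes, without versions. For the annotation, counting tool, strand use and exact transform, the sources used here say nothing. The values ran from -2.1 to 13.94 with 2 decimals, no reads could be recovered from them, and the depth of each library is unknown, so no counting interval is given. Precision rests on the spread between 2 libraries a group.

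Genes entered the tests if their linear level, 2 to the power of the log2 value, reached 10 in 2 or more libraries. The comparison of KO with WT used limma 3.58.1 (R 4.3.3), with genotype as the only term, a variance prior that follows the mean, two-sided tests and Benjamini-Hochberg adjustment over all tested genes. Each SD is over a group's 2 libraries, and folds are 2 to the power of the log2 difference. Symbols on several rows (19, Itgam among them) and 23 rows with a date number in place of a symbol stayed in the tests but were not named. Positions, lengths and overlaps were taken from GENCODE M21, which uses GRCm38, the same assembly as mm10, by symbol (97.4% of tested genes matched) in Python 3.11.15, and promoters from RefSeq. Positions count from 1.

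The members and lists were chosen with earlier results of these data known. All 10 members were named, with up to 4 called genes of each pathway list by smallest p, Pdpk1, the Treg markers, markers of other cells and, for Itgb8 and Lrrc32, the 3 genes with the closest pattern. Alternatives were a term for the replicate number, other filters, a pseudocount of 10, quantile normalization, median centring, 2 other variance priors, a loess correction (span 0.4) for transcript length and mean value, leaving out each library and, chosen after seeing the data, a crossed pairing. The labels do not say that a shared number marks a shared animal, litter or day.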

Additional observations from a re-analysis of the deposited data

How the results depend on the processing

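Itgb8 and Lrrc32 kept their direction under every alternative run on them, and their calls under all but the replicate block and the fits without a library. With the replicate number as a block, limma called 0 genes of any kind (4881 had an unadjusted p under 0.05, and no adjusted p was below 0.0964), while the log2 differences stayed at 0.305 for Lrrc32, -0.78 for Itgb8 and -0.225 for Skil. Same-numbered libraries deviated in opposite directions (r = -0.91), which does not settle whether the numbers pair the samples, since values adjusted for the number before deposit would do the same. A crossed block, chosen after seeing this, had to shrink the residuals and is no evidence on the pairing; it called 9728 genes, 4446 of them lower, with 3 members higher, 7 members lower and 32 pathway genes higher. Without any single library, limma called 0 genes (5225 to 5669 at unadjusted p under 0.05), with ranges of 0.30 to 0.31 for Lrrc32, -0.80 to -0.76 for Itgb8 and -0.275 to -0.175 for Skil; these fits have 1 residual degree of freedom and assume that a lone library varies like the other group, so the 0 says nothing about which library the calls rest on. With no filter, 1 member was lower, since Skil (-0.225) was not called; with a minimum of 100, 1788 genes were lower among the fewer tested. After quantile normalization 6 members were lower, with Tgfbr2 (-0.19), Smad3 (-0.14), Smad7 (-0.285) and Ski (-0.10) added, and 3029 genes were higher and 3067 lower in all. After median centring Smad3 was called (-0.135), with 2983 genes higher and 3250 lower. After the length and mean correction 4 members were lower, with Smad3 (-0.13) and Ski (-0.11) added, and Tgfb1 turned to -0.043; 2564 genes were higher and 2765 lower. The causes of these shifts were not tested. Pdpk1, never called in the main test, turned to -0.0275 with quantile normalization and -0.01 with median centring, and ranged from -0.005 to 0.045 over the fits without a library. With joined exons, the WT levels per kilobase were 9.90 for Lrrc32, 6.94 for Itgb8, 9.07 for Tgfb1, 8.57 for Furin, 8.80 for Tgfbr1, 8.42 for Smad3, 8.90 for Smad7 and 9.21 for Skil. The pseudocount and both other variance priors changed no member's call. Depth is unknown, and 2 libraries a group limit every interval.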

Other observations

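Of the listed pathway genes below the filter, Ltbp1, which encodes a matrix protein that anchors latent TGF-β, was at 3.03 and 3.11 in WT and at 2.15 and 2.19 in KO on the log2 scale. Tgfb2, another TGF-β isoform, was at 2.48 and 2.64 in WT and at 2.32 and 2.17 in KO. Smad6, an inhibitor of bone morphogenetic protein signals, was at 1.64 and 1.67 in WT and at 1.42 and 1.41 in KO. Other genes below the filter went the other way, among them Ltbp2 (1.93 and 1.80 in WT, 2.44 and 2.40 in KO) and Lefty1 (2.21 and 2.20 in WT, 2.43 and 2.50 in KO). The examples were picked outside the naming rule and give no common direction for the genes below the filter. All of these low values had too little signal to enter the tests. Thbs1, which encodes thrombospondin 1, an activator of latent TGF-β, was tested but not called despite a log2 difference of 0.90 (5.60 and 5.0 in WT, 5.94 and 6.46 in KO, adjusted p = 0.085 by limma).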
